A study of Mus musculus with 8 samples.

Results

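Of the 8 RNA-seq libraries of JUN TetON mouse embryonic stem cells (ESCs), 4 came from cells that received PFI-3, and they were compared with the 4 that did not. The libraries with PFI-3 were 2 of PFI-3 alone and 2 of PFI-3 together with BI-9564 (P+B), and those without it were 2 of DMSO, the solvent, and 2 of BI-9564 alone. They were grouped by their treatment labels and not by measured values, though the comparison was chosen with earlier results of these data known. The cells were OG2 transgenic mouse ESCs of genotype c-Jun_TetOn_mESC, at passage P12 and of mixed 129SVJ, C57B6 and CBA background, grown free of feeders with PD0325901, Chir99021 and LIF. All 4 groups carried the JUN transgene and received 2 µg/ml doxycycline, which switches it on, and the labels give 6 h of treatment. The study's text gives a longer induction of JUN for these libraries, so how long JUN was on is not settled here. No library without induced JUN entered the comparison, so every value belongs to cells in which JUN was on. The sources used here do not say whether the line is 1 clone, nor whether replicates were separate cultures, so the p-values measure the spread between these libraries, which may be technical. The dose of PFI-3 in P+B is not settled in these sources and may differ from that of PFI-3 alone.

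BAF complexes are chromatin remodellers that use ATP to move nucleosomes, and their motor is either BRG1, the product of *Smarca4*, or BRM, the product of *Smarca2*. A bromodomain is a protein fold that binds acetylated lysine, a mark of active chromatin. PFI-3 occupies the related bromodomains of BRG1, BRM and PBRM1, and BI-9564 those of BRD9 and BRD7. The study describes subtypes of BAF complex that share BRG1, so the targets of the compounds need not lie in separate complexes. JUN pairs with FOS or ATF family proteins to form AP-1, which drives genes of growth, adhesion and migration. The letters TGANTCA, in which N is any base, are used below as a loose form of its DNA site. In mouse ESCs, naive pluripotency is kept by a network around Oct4, Sox2, Nanog, Esrrb and the Klf factors, and JUN drives the cells out of that state. The comparison asks which genes of JUN-induced cells differ in RNA level with PFI-3, averaged over libraries with and without BI-9564. Whether a difference came about through the bromodomains was not tested.

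With PFI-3, 101 of 10222 tested genes changed (0.988%). Genes lower with PFI-3 numbered 86 (0.841%) and genes higher 15 (0.147%). The lower genes included some members of the keratins, integrins and annexins, among the last the JUN target *Anxa1*. They also included the EGF receptor ligand *Hbegf* and the protease inhibitor *Timp1*. The higher ones included the naive pluripotency factors *Esrrb*, *Klf2* and *Klf4*. Most tested members of the integrin list were not called, and *Timp1* and *Klf4* lost their call when some single libraries were left out. The median log2 difference was −0.81 among the lower genes and 0.79 among the higher genes, against 0.02 for all tested genes. Of all 10222 tested genes, 5737 had a difference above 0 and 4485 (43.9%) below 0, against which the counts of list members above or below 0 are to be read. A gene was called when limma gave an adjusted p under 0.05 (Benjamini-Hochberg over all tested genes) and a fold of at least 1.5 on the scale of log2(TPM + 1), with BI-9564 and the replicate number as blocks. At an adjusted p under 0.05 and any fold, 62 genes were higher and 149 lower, and 1642 genes had an unadjusted p under 0.05. All differences below are log2(TPM + 1) with PFI-3 minus without, with a standard error (SE), and adjusted p is limma's throughout.

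Levels are in TPM, which counts transcripts per length and relative to the library's total, and the authors made them whole numbers, so low genes move in coarse steps and the depth behind a value is unknown. Each library summed to between 991574 and 991897 TPM and had 10285 to 10451 genes at 5 TPM or more, and replicates had a Pearson r of 0.964 to 0.971 across genes, which are not independent. ESC markers were present in every library, with a summed level of 3512 to 5163 TPM without PFI-3 and 3657 to 5377 with it. Of 14 fibroblast and feeder markers, 9 were at 0 in all 8 libraries, and their sum was 5 to 9 TPM without PFI-3 and 2 to 8 with it. Trophectoderm markers summed to 15 to 22 and 10 to 22 TPM, and primitive endoderm markers to 3 to 6 and 3 to 10 TPM. In bulk RNA, fewer cells of a type and less RNA per cell cannot be told apart.

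All 101 called genes moved the same way in 4 of 4 matched pairs of libraries, which the background shows in 8.98% of tested genes downward and 11.2% upward. The 4 libraries with PFI-3 did not overlap the 4 without it for 29 of the 86 lower genes and 12 of the 15 higher genes. Over all tested genes, 1.26% lay wholly below and 1.94% wholly above. The genes were called on these same libraries by an effect that averages the 4 pairs. The agreement of the pairs thus follows largely from the calling, which also favours groups without overlap, and neither adds support. With each library left out in turn, 28 of the 101 genes kept their call in 8 of 8 fits, 26 of them lower and 2 higher (*Esrrb* and *Klf2*), and no called gene changed sign. Without the replicate block, 41 of the 101 kept their call, 39 lower and 2 higher (*Bcdin3d* and *Ccl27a*), and 20 of the 28 were among them. *Esrrb* and *Klf2* were not, so all 20 were lower and no higher gene passed both checks. Without limma's trend on the mean, 7 of the named genes that kept their call in those 8 fits fell short of it, *Flnc*, *Emp1*, *Anxa1*, *Cldn6*, *Cyr61*, *Dusp14* and *Tnfrsf12a*, with adjusted p of 0.0515 to 0.0624. Just inside the fold threshold lay *Hspb8* and *Card10* (both −0.59) and *Zfhx2* (0.60), and just outside it *St14* (−0.57), *Phlda1* (−0.58) and *Axin2* (0.58). These 6 were picked by their values.

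**Figure D1:**
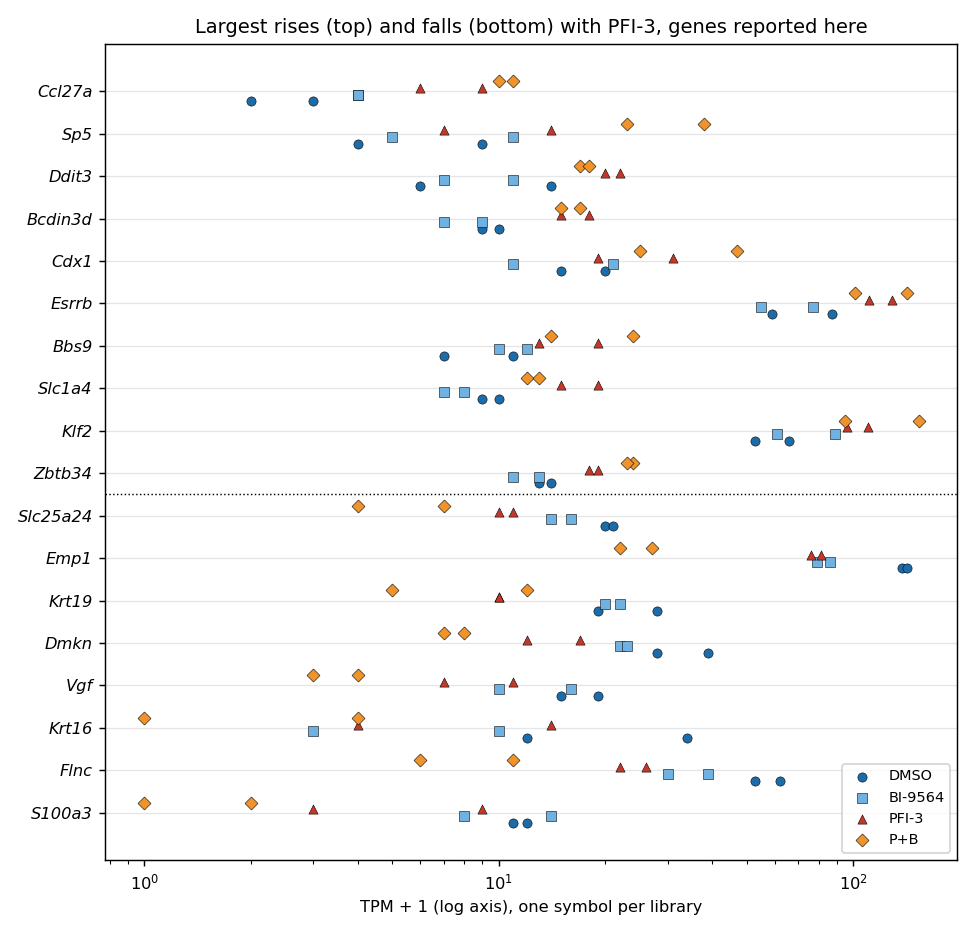
TPM + 1 on a log axis in each of the 8 libraries, for the 10 genes with the largest rise (above the dotted line) and 8 of those with the largest fall (below it) with PFI-3; symbols and colours give the treatment and each symbol is 1 library. *Esrrb* and *Klf2* are higher in all 4 libraries with PFI-3 (red and orange) than in all 4 without (blue), while for *Emp1* the PFI-3 libraries overlap those of BI-9564.

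None of the tested genes for the proteins that PFI-3 and BI-9564 bind was called. *Smarca4* (BRG1) had 123 and 136 TPM with DMSO, 137 and 147 with BI-9564, 119 and 132 with PFI-3 and 136 and 147 with P+B. These groups overlapped, and its difference was −0.03 (SE 0.05, adjusted p = 0.855). *Pbrm1*, *Brd7* and *Brd9* differed by −0.04 (adjusted p = 0.855), −0.12 (0.677) and −0.10 (0.689). *Smarca2* (BRM) was low, at 2 to 5 TPM in every library, and was left out by the filter of a mean of 5 TPM. Of 19 tested genes for other BAF subunits, 0 were called in limma's fit. Among them 1 had an adjusted p under 0.05, *Actb* (−0.18, adjusted p = 0.0204), which encodes beta-actin.

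*Jun* itself was lower with PFI-3, by less than the fold threshold. It had 1970 and 2877 TPM with DMSO, 2071 and 3011 with BI-9564, 1570 and 2227 with PFI-3 and 1569 and 2159 with P+B. Replicate 2 was higher than replicate 1 in all 4 groups, so the groups with and without PFI-3 overlapped, while within each matched pair the PFI-3 library was lower. The difference was −0.39 (SE 0.03, adjusted p = 0.00218), a 1.31-fold fall in 4 of 4 pairs. An exact two-sided permutation test over the 8 libraries, which ignores the pairing, gave p = 0.171, where the smallest possible is 0.0286. Reads of the JUN transgene and of endogenous *Jun* cannot be told apart in this table, and *Jun* overlaps the antisense gene *Junos*. Whether the lower *Jun* level had a part in the changes of other genes was not tested.

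The study names 6 genes as JUN targets, some of them where it describes the compounds, and does not say how it chose them, so their direction is not taken as independent evidence. All 3 that were tested had a difference below 0, and 2 were called. *Anxa1*, which encodes the membrane-binding protein annexin A1, had 63 and 52 TPM with DMSO, 45 and 40 with BI-9564, 39 and 26 with PFI-3 and 21 and 12 with P+B. All 4 libraries with PFI-3 lay below all 4 without, and the difference was −1.09 (SE 0.14, adjusted p = 0.00863). *Anxa1* kept its call with any library left out but not without the replicate block (adjusted p = 0.0547), and it lies within a non-coding gene on the other strand. *Fosl1*, an AP-1 partner of JUN, had 47 and 67 TPM with DMSO, 28 and 43 with BI-9564, 29 and 35 with PFI-3 and 12 and 9 with P+B. Its P+B libraries were the lowest, and PFI-3 alone overlapped BI-9564 alone. The difference was −1.22 (SE 0.21, adjusted p = 0.0225). That call was lost without DMSO replicate 2, PFI-3 replicate 1, either BI-9564 replicate or P+B replicate 1 (adjusted p = 0.0632 to 0.0812) and without the replicate block (0.0522), and *Fosl1* overlaps *Ccdc85b* on the other strand. *Fosl2*, another FOS family partner, had 35 and 34 TPM with DMSO, 35 and 33 with BI-9564, 24 and 29 with PFI-3 and 19 and 14 with P+B. The groups did not overlap, but its difference of −0.69 (SE 0.16) had an adjusted p of 0.0619 and was not called.

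The other 3 JUN targets had means under 5 TPM. *Pxdc1* had 8 and 8 TPM with DMSO, 6 and 6 with BI-9564, 2 and 4 with PFI-3 and 0 and 1 with P+B. The transcription factor gene *Runx1* had 4 and 9, 6 and 6, 2 and 3, and 1 and 1 TPM in the same order. *Tgfbi*, which encodes a matrix protein, was lower still, at 0 to 3 TPM with PFI-3 and 1 to 7 without. With the filter lowered to a mean of 1 TPM, the differences were −1.76 for *Pxdc1* (adjusted p = 0.0462), −1.42 for *Runx1* (0.0632) and −0.90 for *Tgfbi* (0.175).

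Within the AP-1 family, 2 of 12 tested genes were called lower and 0 higher, and 5 had an adjusted p under 0.05, all lower. The median of the family was −0.19 against 0.02 for all tested genes. *Atf3*, a stress-induced partner of JUN, had 29 and 32 TPM with DMSO, 29 and 34 with BI-9564, 17 and 20 with PFI-3 and 10 and 13 with P+B. All 4 libraries with PFI-3 were below the other 4, and the difference was −1.04 (SE 0.15, adjusted p = 0.0126). The call was lost without either BI-9564 replicate or P+B replicate 2 (adjusted p = 0.0541 to 0.0641).

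**Figure D2:**
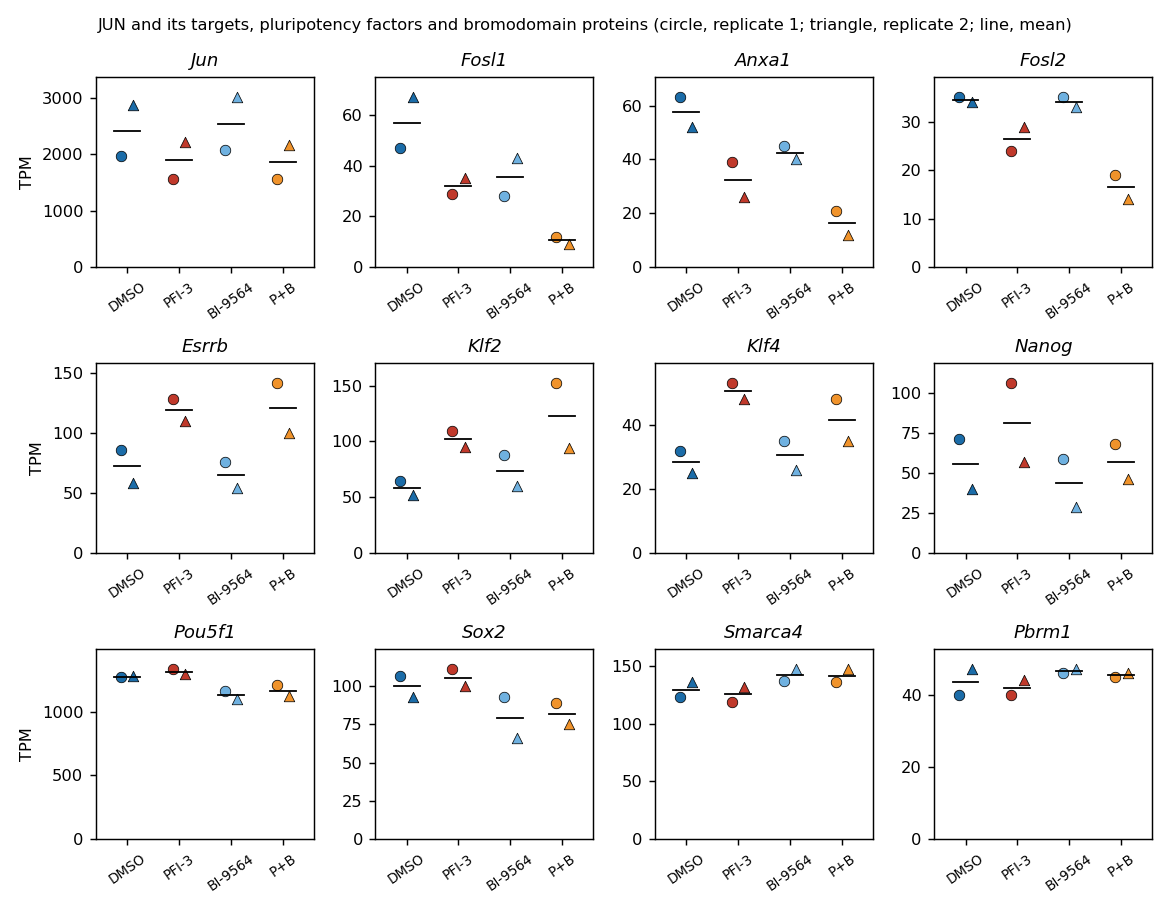
TPM of 12 genes by treatment, with a circle for replicate 1, a triangle for replicate 2 and a line for their mean; axes start at 0. *Jun* is lower with PFI-3 within each replicate number, *Fosl1*, *Anxa1* and *Fosl2* are lowest with P+B, *Esrrb*, *Klf2* and *Klf4* are higher in both treatments with PFI-3, and *Pou5f1*, *Sox2*, *Smarca4* and *Pbrm1* overlap.

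Among the 28 genes that kept their call with any library left out, *Flnc*, *Krt16*, *Dmkn* and *Emp1* were among those that fell the most. *Flnc* (chr6:29433256-29461883 of GRCm38, + strand) encodes filamin C, which crosslinks actin. It had 52 and 61 TPM with DMSO, 38 and 29 with BI-9564, 25 and 21 with PFI-3 and 10 and 5 with P+B. The order of the 4 treatments held in every library, and the difference was −1.67 (SE 0.21, adjusted p = 0.00863), a 3.18-fold fall. *Dmkn*, which encodes the secreted epidermal protein dermokine, had 38 and 27 TPM with DMSO, 21 and 22 with BI-9564, 16 and 11 with PFI-3 and 6 and 7 with P+B. Its groups did not overlap, and the difference was −1.40 (SE 0.16, adjusted p = 0.00797). *Emp1*, which encodes an epithelial membrane protein, had 136 and 141 TPM with DMSO, 78 and 85 with BI-9564, 80 and 75 with PFI-3 and 21 and 26 with P+B. Either compound alone gave a level between those of DMSO and P+B, and the difference with PFI-3 was −1.29 (SE 0.17, adjusted p = 0.00901).

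The promoters of the 5 genes with the smallest p among the largest rises and falls follow, as RefSeq gives them, to show what lies at the start of genes that fell and rose. Each runs 5′ to 3′ from 250 bases before to 50 after the start, on GRCm38.p6, and capitals mark matches on either strand to the letters of AP-1 (TGANTCA), CRE (TGACGTCA), TEAD (CATTCC) or ATF4 (TGATGCAA) sites, whose letters can overlap.
Emp1 promoter, chr6:135362681-135362980, + strand: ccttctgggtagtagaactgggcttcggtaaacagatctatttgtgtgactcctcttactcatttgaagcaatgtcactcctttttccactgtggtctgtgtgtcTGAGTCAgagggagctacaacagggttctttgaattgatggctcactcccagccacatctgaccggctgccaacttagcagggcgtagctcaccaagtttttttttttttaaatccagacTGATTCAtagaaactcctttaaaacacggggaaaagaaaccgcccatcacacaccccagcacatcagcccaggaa
Dmkn promoter, chr7:30763506-30763805, + strand: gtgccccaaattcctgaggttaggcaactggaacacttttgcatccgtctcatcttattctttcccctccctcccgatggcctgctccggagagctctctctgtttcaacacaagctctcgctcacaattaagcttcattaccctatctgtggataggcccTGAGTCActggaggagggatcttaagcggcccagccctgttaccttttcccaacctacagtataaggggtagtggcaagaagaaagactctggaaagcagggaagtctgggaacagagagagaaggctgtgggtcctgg
Flnc promoter, chr6:29432903-29433202, + strand: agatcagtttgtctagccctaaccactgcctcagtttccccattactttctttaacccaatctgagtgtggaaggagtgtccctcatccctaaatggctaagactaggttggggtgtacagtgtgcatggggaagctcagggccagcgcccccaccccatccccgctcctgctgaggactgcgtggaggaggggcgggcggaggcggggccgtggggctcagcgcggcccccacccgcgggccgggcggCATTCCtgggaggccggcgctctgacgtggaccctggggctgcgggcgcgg
Esrrb promoter, chr12:86360867-86361166, + strand: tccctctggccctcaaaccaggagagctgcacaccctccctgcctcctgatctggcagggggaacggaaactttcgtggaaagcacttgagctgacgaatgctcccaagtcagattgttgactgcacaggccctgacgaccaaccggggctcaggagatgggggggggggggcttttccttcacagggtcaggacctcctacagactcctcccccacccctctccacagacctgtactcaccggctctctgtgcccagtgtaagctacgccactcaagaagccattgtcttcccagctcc
Klf2 promoter, chr8:72318812-72319111, + strand: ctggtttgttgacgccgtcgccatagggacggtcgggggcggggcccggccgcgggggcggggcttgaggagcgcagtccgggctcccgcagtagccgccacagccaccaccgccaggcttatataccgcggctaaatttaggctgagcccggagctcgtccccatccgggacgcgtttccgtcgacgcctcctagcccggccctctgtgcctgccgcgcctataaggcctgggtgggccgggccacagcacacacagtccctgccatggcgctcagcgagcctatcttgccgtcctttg
*Emp1* held AP-1 letters at −145 and −25 from its start, *Dmkn* at −89, and *Flnc* held TEAD letters that begin at −1 and run across its start. Those of *Esrrb* and *Klf2*, both higher with PFI-3, held none of the 4 motifs in these 300 bases. AP-1 letters were in 8 of the 60 promoters found for lower genes (13.3%) and in 2 of the 14 found for higher genes (14.3%), those of *Ddit3* and *Zfhx2*. TEAD letters were in 15 of the 60 (25.0%) and in 0 of the 14. AP-1 letters were in 4.23% of the promoters of tested genes and in 7.93% of all 27025 promoters in the table, and TEAD letters in 11.4% and 14.6%. As a check over the set of lower genes these counts are void, because only 60 of 86 (69.8%) had a promoter in the table. Of all tested genes, 78.4% had one. Nothing is read from the 3 genes shown with a match about falls against rises. A match describes letters only, and no binding was measured here.

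Keratin, actin and contractility genes were the list with the most calls in number, but not in share. Of 29 tested, 5 were called lower and 0 higher, against 0.841% called lower over all tested genes. The called genes were *Krt18*, *Krt8*, *Krt19*, *Tgm2* and *Flnc*, and no myosin, tropomyosin or calponin gene was called. Other lists had a larger share, such as annexins and S100 proteins with 4 of 12. Of the 29, 26 had a difference below 0, and the median was −0.23 against 0.02 for all tested genes. *Krt18*, the keratin of simple epithelia, had 103 and 89 TPM with DMSO, 58 and 38 with BI-9564, 66 and 51 with PFI-3 and 27 and 20 with P+B. The groups overlapped because BI-9564 alone was as low as PFI-3 alone, and the difference was −0.85 (SE 0.09, adjusted p = 0.00769). Its partner *Krt8* went the same way, with 163 and 114 TPM with DMSO, 97 and 69 with BI-9564, 101 and 81 with PFI-3 and 53 and 30 with P+B (−0.80, SE 0.11, adjusted p = 0.00916). *Krt8* lost its call without PFI-3 replicate 1 (adjusted p = 0.0523) and without the replicate block (0.146), and *Krt18* lost it without the block (0.0584).

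The stress keratin *Krt16* had 33 and 11 TPM with DMSO, 9 and 2 with BI-9564, 13 and 3 with PFI-3 and 3 and 0 with P+B. Replicate 1 was the higher in every group, so its difference of −1.44 (SE 0.19, adjusted p = 0.00901) rested on the matched pairs, and without the replicate block its adjusted p was 0.4. *Krt19* fell by 1.32 (SE 0.22, adjusted p = 0.0208) from 18 to 27 TPM without PFI-3 to 4 to 11 with it, with no overlap. *Krt19* lost its call without either DMSO or either BI-9564 replicate, without PFI-3 replicate 1 (adjusted p = 0.0541 to 0.0921) and without the block (0.0635). *Tgm2*, which encodes a protein-crosslinking transglutaminase, was at 4 to 26 TPM without PFI-3 and 2 to 11 with it. Its difference was −1.17 (SE 0.18, adjusted p = 0.0153), lost without 6 of the 8 libraries, the exceptions being BI-9564 replicate 2 and P+B replicate 2 (adjusted p = 0.0518 to 0.074), and without the block (0.0983). *Vim*, which encodes the intermediate filament vimentin, was at −0.33 (SE 0.04, adjusted p = 0.00863), under the fold threshold.

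Annexins and S100 proteins, most of which bind calcium, had the lowest median of the lists with over 3 tested genes. Of 12 tested, 4 were called lower, 8 had an adjusted p under 0.05 and were lower, 0 were called higher, and the median was −0.46. *S100a11* was at 492 to 665 TPM without PFI-3 and 374 to 509 with it (−0.35, SE 0.04, adjusted p = 0.00863), and *S100a10* at 172 to 304 and 120 to 250 TPM (−0.50, SE 0.06, adjusted p = 0.00863). Both passed the adjusted p but not the fold. *S100a6* had 387 and 151 TPM with DMSO, 252 and 99 with BI-9564, 315 and 108 with PFI-3 and 148 and 51 with P+B. The replicates of each group were far apart, and *S100a6* passed only through the pairing (−0.62, SE 0.09, adjusted p = 0.0152, but 0.682 without the block). It was also lost without any of the BI-9564 or P+B libraries (adjusted p = 0.0539 to 0.064). *S100a3* had the largest called fall the naming rule allows, from 7 to 13 TPM to 0 to 8 TPM (−2.02, SE 0.41, adjusted p = 0.046). At levels this low whole-number steps weigh most, *S100a2* shares its span, and the call was lost without 6 of the 8 libraries, all but DMSO replicate 1 and PFI-3 replicate 1 (adjusted p = 0.123 to 0.165), and without the block (0.12).

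Of 24 tested integrin and focal adhesion genes, which tie cells to the matrix, 2 were called lower and 0 higher, 19 had a difference below 0, and the median was −0.13. *Itga3*, the laminin-binding integrin alpha 3, had 61 and 75 TPM with DMSO, 36 and 39 with BI-9564, 35 and 40 with PFI-3 and 18 and 16 with P+B. Each compound alone gave nearly the same level, P+B was lowest, and the difference was −0.97 (SE 0.10, adjusted p = 0.00769). *Itga6*, which also binds laminin, had 201 and 177 TPM with DMSO, 134 and 127 with BI-9564, 147 and 130 with PFI-3 and 76 and 70 with P+B (−0.64, SE 0.08, adjusted p = 0.00863). Without BI-9564 replicate 2 or P+B replicate 1 *Itga6* fell short of the fold, with a smallest difference of −0.57.

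Of 22 tested matrix genes, 2 were called lower and 0 higher, and the list median was −0.08. *Lama3*, a laminin chain that such integrins bind, was at 15 to 31 TPM without PFI-3 and 7 to 20 with it (−0.84, SE 0.16, adjusted p = 0.038), and lost its call with any of the 8 libraries left out (adjusted p = 0.054 to 0.132) and without the block (0.0899).

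Of 17 tested claudin, cadherin and epithelial genes, which join cells to each other, 3 were called lower and 0 higher, 15 had a difference below 0, and the median was −0.21. *Cldn6*, a tight-junction claudin that rises when ESCs differentiate to epithelium, had 103 and 143 TPM with DMSO, 58 and 82 with BI-9564, 64 and 74 with PFI-3 and 29 and 26 with P+B. P+B stood below every other library, and the difference was −1.05 (SE 0.13, adjusted p = 0.00863). *Dsp*, which encodes the desmosome protein desmoplakin, was at 27 to 56 TPM without PFI-3 and 13 to 39 with it (−0.75, SE 0.10, adjusted p = 0.0092). It lost its call without BI-9564 replicate 2 (adjusted p = 0.0561) and without the block (0.0565). The classical cadherin *Cdh1*, named after its value was seen, was at −0.17 (adjusted p = 0.0544) and was not called.

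Proteases and their inhibitors had 3 of 10 tested genes called lower and 0 higher, with a median of −0.25. *Plaur*, the urokinase receptor, was at 198 to 304 TPM without PFI-3 and 92 to 220 with it (−0.67, SE 0.12, adjusted p = 0.0277). It lost its call without 6 of the 8 libraries, all but DMSO replicate 2 and PFI-3 replicate 2 (adjusted p = 0.0571 to 0.107), and without the block (0.0603). *Timp1*, a metalloprotease inhibitor, was at 113 to 194 and 59 to 154 TPM (−0.61, SE 0.09, adjusted p = 0.015). Without replicate 2 of any of the 4 groups *Timp1* lost its call, with differences down to −0.52 in size or adjusted p up to 0.0648, and without the block its adjusted p was 0.0584.

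Of 16 tested immediate early genes outside AP-1, which growth factors switch on within minutes, 4 were called lower and 0 higher, and the median was −0.26. Of the 16, 10 were below 0 and 6 above it, and *Ier2*, named after its value was seen, was higher at 95, 104, 83 and 99 TPM without PFI-3 and 116, 135, 114 and 121 with it, with no overlap and short of the fold (0.35, SE 0.05, adjusted p = 0.0153). *Hbegf*, a ligand of the EGF receptor, had 45 and 32 TPM with DMSO, 19 and 15 with BI-9564, 22 and 15 with PFI-3 and 8 and 6 with P+B, a difference of −1.10 (SE 0.11, adjusted p = 0.00614). *Ier5* had 20 and 31 TPM with DMSO, 21 and 29 with BI-9564, 12 and 18 with PFI-3 and 10 and 12 with P+B, with no overlap (−0.91, SE 0.12, adjusted p = 0.00982). BI-9564 alone left *Ier5* at the level of DMSO, while *Hbegf* was as low with it as with PFI-3 alone. *Ier5* lost its call without BI-9564 replicate 2 (adjusted p = 0.0617) and without the block (0.0926). *Myc*, which drives growth and is part of the ESC program, was at 32 to 40 TPM without PFI-3 and 15 to 26 with it, with no overlap (−0.75, SE 0.13, adjusted p = 0.0235). Its call was lost without 6 of the 8 libraries, all but DMSO replicate 2 and PFI-3 replicate 2 (adjusted p = 0.0669 to 0.102), and without the block (0.0529). *Plk2*, a kinase gene that p53 also induces, was at −0.52 (SE 0.07, adjusted p = 0.00863), short of the fold.

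Targets of YAP and TEAD, which respond to cell shape and tension, had 2 of 19 tested genes called lower, 0 higher and a median of −0.18. *Cyr61*, a secreted matricellular protein, had 256 and 217 TPM with DMSO, 246 and 169 with BI-9564, 177 and 129 with PFI-3 and 162 and 96 with P+B (−0.67, SE 0.08, adjusted p = 0.00769). It was lower with PFI-3 in each matched pair, with overlap because replicate 1 was the higher throughout, and without the block its adjusted p was 0.166. *Myof*, which encodes the membrane repair protein myoferlin, was at 28 to 64 TPM without PFI-3 and 16 to 43 with it (−0.63, SE 0.08, adjusted p = 0.00863). *Myof* fell just short of the fold without P+B replicate 2 (−0.58, adjusted p = 0.0317) and lost its call without the block (0.117).

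Further named falls were at low levels. *Vgf*, which encodes a secreted neuropeptide precursor, was at 9 to 18 TPM without PFI-3 and 2 to 10 with it (−1.41, SE 0.26, adjusted p = 0.0318), and *Slc25a24*, a mitochondrial carrier, at 13 to 20 and 3 to 10 TPM (−1.23, SE 0.20, adjusted p = 0.0188). *Slc25a24* did not overlap between the groups, and *Vgf* did. Both lost their call without DMSO replicate 2, PFI-3 replicate 1 and either BI-9564 replicate (*Slc25a24* at an adjusted p of 0.0719 to 0.0916). *Vgf* also lost it without DMSO replicate 1 and P+B replicate 1 (0.0589 to 0.124 over its 6 fits) and without the block (0.0664).

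Several genes outside the lists kept their call with any library left out and were named after their values were seen. *Tnfrsf12a*, the receptor of the cytokine TWEAK, had 179 and 210 TPM with DMSO, 134 and 205 with BI-9564, 111 and 134 with PFI-3 and 68 and 94 with P+B (−0.85, SE 0.09, adjusted p = 0.00769). *Plet1*, a placenta-expressed surface protein, had 163 and 134, 75 and 73, 92 and 74, and 29 and 31 TPM in that order (−1.05, SE 0.11, adjusted p = 0.00769). *Errfi1*, a feedback inhibitor of the EGF receptor, was at 43 to 63 TPM without PFI-3 and 27 to 41 with it, and *Dusp14*, a MAP kinase phosphatase, at 228 to 315 and 111 to 207 TPM, neither with overlap. Their differences were −0.82 (adjusted p = 0.0082) and −0.78 (0.00863). Without the block *Tnfrsf12a* lost its call (0.0584).

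Of 20 tested naive pluripotency factors, 17 were above 0, 3 were called higher and 0 lower, 5 had an adjusted p under 0.05 and were higher, and the median was 0.35 against 0.02 for all tested genes. *Esrrb*, an orphan nuclear receptor of the naive network (chr12:86361117-86521628 of GRCm38, + strand), had 86 and 58 TPM with DMSO, 76 and 54 with BI-9564, 128 and 110 with PFI-3 and 141 and 100 with P+B. All 4 libraries with PFI-3 were above all 4 without, and the difference was 0.81 (SE 0.07, adjusted p = 0.00401), a 1.75-fold rise. *Klf2* (chr8:72319033-72321656 of GRCm38, + strand) had 65 and 52 TPM with DMSO, 88 and 60 with BI-9564, 109 and 95 with PFI-3 and 152 and 94 with P+B. Its groups did not overlap either, and the difference was 0.75 (SE 0.08, adjusted p = 0.00769). Replicate 1 was higher than replicate 2 in every group for both genes, and without the replicate block neither passed (adjusted p = 0.0726 for *Esrrb* and 0.0979 for *Klf2*).

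*Klf4* had 32 and 25 TPM with DMSO, 35 and 26 with BI-9564, 53 and 48 with PFI-3 and 48 and 35 with P+B. P+B replicate 2 equalled the highest library without PFI-3, and the difference was 0.62 (SE 0.10, adjusted p = 0.0208). *Klf4* kept its call only without BI-9564 replicate 1 or P+B replicate 2 (adjusted p = 0.0548 to 0.0856 for the other 6 libraries), and lost it with median centring and without the block (0.129). *Nanog* had 71 and 40 TPM with DMSO, 59 and 29 with BI-9564, 106 and 57 with PFI-3 and 68 and 46 with P+B. It was higher in each of the 4 pairs, by 0.48 (SE 0.08, adjusted p = 0.0235), which did not reach the fold. *Tdh*, the threonine dehydrogenase on which mouse ESC growth relies, was above in all 4 libraries, at 339 to 377 TPM against 263 to 317, by 0.25 (SE 0.04, adjusted p = 0.0235).

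Of 15 tested core pluripotency genes, 0 were called and 0 had an adjusted p under 0.05 in limma's fit, and the median was 0.07. The naive and core lists were not tested against each other. *Pou5f1* (Oct4) had 1273 and 1281 TPM with DMSO, 1167 and 1104 with BI-9564, 1333 and 1299 with PFI-3 and 1211 and 1124 with P+B, a difference of 0.04 (SE 0.03, adjusted p = 0.54) that turned to −0.0051 when each library was centred on its median. *Sox2* was at 66 to 107 TPM without PFI-3 and 75 to 111 with it (0.07, SE 0.07, adjusted p = 0.679). Among the markers of the formative and primed states, 1 of 8 tested genes was called lower, *Cldn6*, and 0 higher, with a median of −0.19.

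WNT response genes had 2 of 12 tested genes called higher and 0 lower, with a median of 0.17. The medium holds Chir99021, which switches this pathway on, in all 8 libraries. *Sp5*, a direct WNT target, had 3 and 8 TPM with DMSO, 4 and 10 with BI-9564, 6 and 13 with PFI-3 and 22 and 37 with P+B (1.36, SE 0.26, adjusted p = 0.035). The rise was 0.72 without BI-9564 and 2.00 with it. *Cdx1*, a homeobox gene, had 14 and 19 TPM with DMSO, 10 and 20 with BI-9564, 18 and 30 with PFI-3 and 24 and 46 with P+B (0.83, SE 0.16, adjusted p = 0.0384). Both lost their call without 7 of the 8 libraries, *Sp5* all but DMSO replicate 2 and *Cdx1* all but DMSO replicate 1 (adjusted p up to 0.137 and 0.139), and without the block (0.226 and 0.304). *Axin2*, the feedback inhibitor of the pathway, had 17 and 26, 30 and 37, 25 and 43, and 42 and 57 TPM with DMSO, BI-9564, PFI-3 and P+B (0.58, SE 0.10, adjusted p = 0.0198) and lay just under the fold.

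Of 21 tested genes of protein folding in the endoplasmic reticulum, 0 were called, 3 had an adjusted p under 0.05 and were higher, and 17 were above 0, with a median of 0.18. *Manf*, a secreted stress factor, was at 115 to 166 TPM without PFI-3 and 158 to 222 with it (0.47, SE 0.06, adjusted p = 0.00901). *Hspa5*, the chaperone BiP, was at 321 to 385 and 450 to 474 TPM (0.34, SE 0.05, adjusted p = 0.0151), and *Calr*, calreticulin, at 688 to 849 and 872 to 981 TPM (0.24, SE 0.04, adjusted p = 0.0148). The groups of *Hspa5* and *Calr* did not overlap. Of 26 tested ATF4 targets, 20 were above 0 and 6 below, with a median of 0.10. At an adjusted p under 0.05, 2 were higher and 1 was lower, *Cth* (−0.40, SE 0.07, adjusted p = 0.0285), which was short of the fold. *Ddit3*, which encodes the stress factor CHOP, was the only called gene among them. It had 13 and 5 TPM with DMSO, 10 and 6 with BI-9564, 21 and 19 with PFI-3 and 16 and 17 with P+B (1.09, SE 0.21, adjusted p = 0.0351). Its call was lost without 6 of the 8 libraries, all but DMSO replicate 1 and P+B replicate 1 (adjusted p = 0.074 to 0.134), and without the block (0.116), and the annotation holds a second *Ddit3* entry and *Mars* over it.

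Sterol synthesis genes, which SREBP2 drives, were above 0 in 22 of 24 tested genes, with a median of 0.18, 1 called higher and 0 lower. *Mvd*, an enzyme of the mevalonate route, had 39 and 46 TPM with DMSO, 46 and 52 with BI-9564, 61 and 73 with PFI-3 and 60 and 88 with P+B, with no overlap (0.60, SE 0.08, adjusted p = 0.00863). It fell short of the fold without replicate 2 of DMSO, BI-9564 or P+B or without PFI-3 replicate 1, with a smallest difference of 0.55, and lost its call with quantile normalization, with median centring and without the block (0.0911). In the same pathway *Fdps* was at 0.30 (adjusted p = 0.0389). The fatty acid desaturase gene *Scd2* was at 95 to 144 TPM without PFI-3 and 128 to 231 with it (0.56, SE 0.07, adjusted p = 0.00827), while *Plin2*, which coats lipid droplets, was called lower (−0.64, SE 0.10, adjusted p = 0.0178). *Plin2* lost that call without any of the BI-9564 or P+B libraries, where it fell below the fold or reached an adjusted p of 0.0878, and without the block (0.133).

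Lysosome genes were above 0 in 26 of 31 tested, with a median of 0.16, 4 at an adjusted p under 0.05 and 0 called. *Hexa*, the alpha chain of hexosaminidase, was at 16 to 30 TPM without PFI-3 and 24 to 48 with it (0.55, SE 0.09, adjusted p = 0.0163). *Mcoln1*, a lysosomal calcium channel, was at 43 to 59 and 60 to 84 TPM, with no overlap (0.46, SE 0.08, adjusted p = 0.0225). The metallothioneins, metal-binding proteins, passed the adjusted p with small standard errors. *Mt2* had 1666 and 1451 TPM with DMSO, 1628 and 1420 with BI-9564, 2089 and 2011 with PFI-3 and 2223 and 2013 with P+B (0.44, SE 0.03, adjusted p = 0.00218). *Mt1* was at 689 to 925 TPM without PFI-3 and 1103 to 1330 with it (0.55, SE 0.04, adjusted p = 0.0026). Neither overlapped, neither reached the fold, and *Mt1* passed it with quantile normalization (0.59) and without PFI-3 replicate 1 (0.59).

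The other named rises were single genes at low levels. *Ccl27a*, a chemokine gene that overlaps *Il11ra1*, had 2 and 1 TPM with DMSO, 3 and 3 with BI-9564, 5 and 8 with PFI-3 and 9 and 10 with P+B (1.49, SE 0.25, adjusted p = 0.0226). *Bcdin3d*, an RNA methyltransferase, was at 6 to 9 TPM without PFI-3 and 14 to 17 with it (0.90, SE 0.15, adjusted p = 0.0208). *Bbs9* of the primary cilium, the amino acid transporter *Slc1a4* and *Zbtb34* rose by 0.79, 0.79 and 0.71 (adjusted p = 0.0226, 0.0348 and 0.0391). None of the 5 overlapped between the groups. *Slc1a4* and *Zbtb34* lost their call with any library left out (adjusted p up to 0.128 and 0.137). *Ccl27a* kept it only without DMSO replicate 1, *Bcdin3d* only without PFI-3 replicate 2 and *Bbs9* only without BI-9564 replicate 1 (adjusted p up to 0.0886, 0.0921 and 0.102). Without the block *Bbs9* (0.198), *Slc1a4* (0.0603) and *Zbtb34* (0.0726) lost it too, and *Zbtb34* with quantile normalization.

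**Figure D3:**
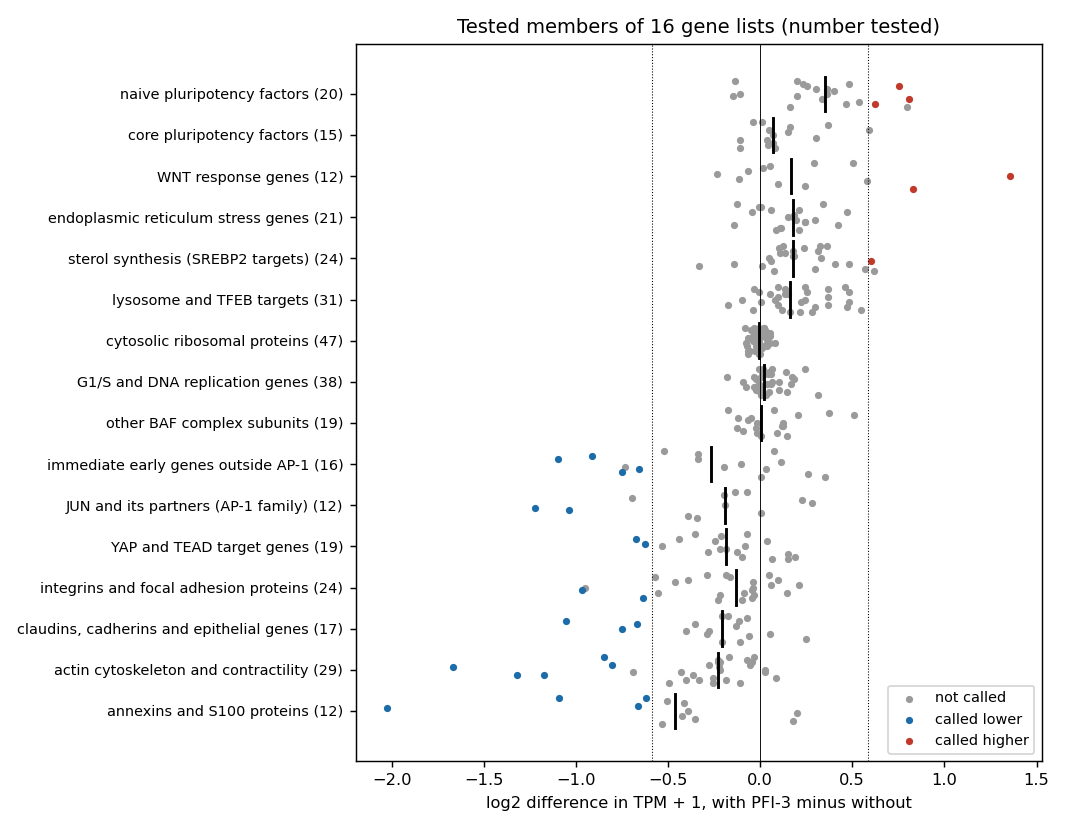
Difference in log2(TPM + 1), with PFI-3 minus without, for each tested member of 16 gene lists (number tested in brackets); each point is a gene, red and blue points were called higher and lower, the black bar is the list's median and the dotted lines mark a fold of 1.5. Naive pluripotency factors have a median of 0.35 and annexins and S100 proteins of −0.46, while ribosomal protein and replication genes gather at 0.

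Of the 49 gene lists, 18 held a gene called lower, 6 held one called higher and 0 held both. In 23 lists genes were tested and 0 called by limma, and in 2 lists, both of them markers of other cell types, no gene reached the filter. Cytosolic ribosomal proteins (47 tested) had a median of −0.01 and a range of −0.08 to 0.08, and 0 had an adjusted p under 0.05. Genes of the G1/S transition and DNA replication (38 tested) had a median of 0.02 and 0 at an adjusted p under 0.05, and those of G2/M and mitosis (35 tested) a median near 0 and 2 at an adjusted p under 0.05, both lower. One of these 2, *Cdc20*, an activator of the anaphase-promoting complex, was at −0.29 (SE 0.04, adjusted p = 0.00863). The enzymes of H3K27 acetylation and methylation (19 tested, median 0.01) and the BET and P-TEFb genes (12 tested, median −0.07) had 0 genes at an adjusted p under 0.05. Among DNA methyltransferases and TET enzymes, 1 of 8 was called lower, *Tet3* (−0.74, SE 0.11, adjusted p = 0.015), at 16 to 26 TPM without PFI-3 and 9 to 14 with it. *Tet3* kept its call only without DMSO replicate 1 (adjusted p up to 0.077 otherwise) and lost it without the block (0.0851).

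The effect of PFI-3 could be read separately without BI-9564, as PFI-3 against DMSO, and with it, as P+B against BI-9564, comparisons that share no library. No gene differed between them by limma at an adjusted p under 0.05, with 588 at an unadjusted p under 0.05 and a smallest adjusted p of 0.672. Of the 86 lower genes, 74 fell more in the presence of BI-9564, where 50.5% of all tested genes had the lower effect there. Their median effect was −0.70 without and −0.95 with BI-9564, and the median of the differences was −0.33. Of the 15 higher genes, 7 rose more with BI-9564, and the medians were 0.79 and 0.86. Across all tested genes, which are not independent, the Pearson r between both effects was 0.294.

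*Emp1* had an effect of −0.83 without and −1.76 with BI-9564, a difference of −0.93 (SE 0.15, adjusted p = 0.672). *Flnc* had −1.26 and −2.07, *Fosl1* −0.80 and −1.65, and *Sp5* 0.72 and 2.00. *Krt16* had −1.43 and −1.45, *Esrrb* 0.74 and 0.88 and *Klf2* 0.80 and 0.71. The first set leant to a larger effect beside BI-9564 and the second had nearly equal effects, but for none of these 7 genes did the difference pass. Both sets were formed from these same values, so they are a description and not separate kinds of response. For comparison over the same libraries, BI-9564 itself, present against absent, gave −1.22 for *Emp1*, −1.15 for *Flnc*, −1.10 for *Fosl1*, −0.07 for *Esrrb* and 0.02 for *Jun*, beside the −1.29, −1.67, −1.22, 0.81 and −0.39 of PFI-3. Both effects come from the same 8 libraries. In the 4 libraries without BI-9564 taken alone limma called 0 genes (912 at an unadjusted p under 0.05), and in the 4 with it 0 genes (994). These fits had 2 libraries on each side and few residual degrees of freedom, so little can be read from 0 calls. A different dose of PFI-3 in P+B and the presence of BI-9564 cannot be told apart.

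**Figure D4:**
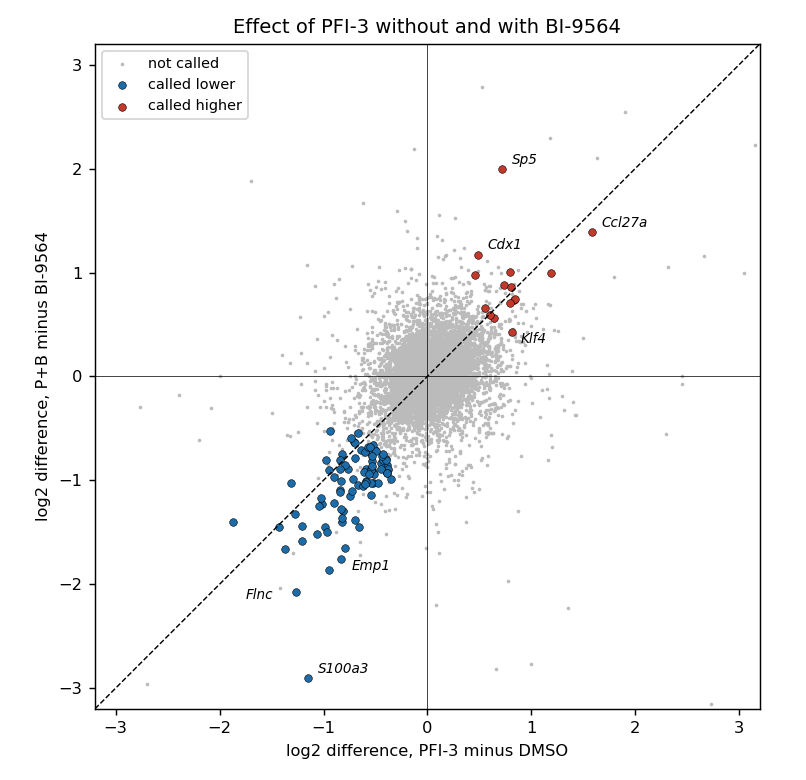
Log2 difference in TPM + 1 for PFI-3 against DMSO (horizontal) and for P+B against BI-9564 (vertical); each point is a tested gene, called genes are blue (lower) and red (higher), the dashed line marks equal effects, and 6 genes lie outside the axes. Most blue points lie below the dashed line, with medians of −0.70 and −0.95, while the red points scatter around it.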

How the data were processed

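RNA-seq was measured in 8 libraries of 4 groups with 2 replicates each, grouped by their labels. Libraries were made from oligo-dT-selected RNA, and the submitters' processing notes name bcl2fastq, Bowtie2 2.2.5, RSEM 1.3.0 and mm10. The annotation and strand setting are not given in the sources used here. Values were deposited for 50600 gene names as a score per gene, which is TPM after the authors turned it into whole numbers. Of these, 33075 were at 0 throughout, and the 10222 whose mean reached 5 entered the test. TPM keeps no depth, so count models were not used and counting error is unknown. The values log2(TPM + 1) were fitted in R 4.3.3 by limma 3.58.1, using lmFit and a trended eBayes on 4 residual degrees of freedom, with PFI-3, BI-9564 and the replicate number as terms.

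The replicate numbers pair the samples: between any 2 groups, the deviations of same-numbered libraries had a Pearson r of 0.143 to 0.236 across genes (6 pairs of groups). In simulated data with the same 10222 genes, calls were made for 76 of 100 genes given a log2 change of 1, for 51 of 100 given 0.7, and for 2 of 10022 left as they were. The simulated noise was normal and independent between genes and libraries, around an exactly additive replicate effect. These counts therefore do not give the rate of false calls in the measured data. Positions and overlaps are from GENCODE M21 on GRCm38, and promoters from RefSeq on GRCm38.p6. Named genes were the 10 largest called rises and falls that moved the same way in 4 pairs (predicted genes, Rik names, pseudogenes and repeated names left out), *Jun*, its targets named by the study, the proteins the compounds bind, and up to 3 genes with the smallest p in every other list described. Genes named outside this rule, after their values were seen, were *Krt8*, *Tgm2*, *S100a6*, *Myc*, *Nanog*, *Tdh*, *Pou5f1*, *Sox2* and those the text marks so. The comparison, the members and the 49 lists were chosen with earlier results of these data known. Alternatives were the fit without the replicate block or with a product term, other pseudocounts, filters, scalings and thresholds, limma without a trend, each library left out, and the libraries with or without BI-9564 alone. Some genes that the naming rule selects are not reported here.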

Additional observations from a re-analysis of the deposited data

Results flagged for a closer look

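The 4 libraries on each side of the comparison were examined for 1 that stood apart from the other 3, in 94 genes and so 188 sides, where chance gives about 1 in 20, and 3 sides stood out. Each side holds 2 treatments. *Pbrm1* had 40 TPM in DMSO replicate 1 against 46 to 47 in the other libraries without PFI-3. *Myc* had 40 TPM in the same library against 32 to 33. *Errfi1* had 41 TPM in PFI-3 replicate 1 against 27 to 29 in the other libraries with PFI-3.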

How the results depend on the processing

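Depth is unknown because TPM keeps none, and whole-number values limit genes of a few TPM. Without the replicate block, by which same-numbered libraries are paired, 41 genes were called (2 higher, 39 lower) against 101 (15 and 86). Without a trend in limma 36 were called (8 and 28), at an adjusted p under 0.01 36 (3 and 33), and without the fold threshold 211 (62 and 149). Higher genes numbered 8 with a pseudocount of 5, 9 and 7 with filters at a mean of 1 and 20, and 5 with no filter, when lower genes stayed at 65 or more. With each library left out, 37 to 81 genes were called, 3 to 10 higher and 34 to 75 lower, fewest without BI-9564 replicate 2 (37), and 0 to 1 gene differed in effect with and without BI-9564 (1 when PFI-3 or P+B lacked its replicate 1). In the libraries without or with BI-9564 alone, with 2 on each side and few residual degrees of freedom, 0 were called in either direction. The difference of *Pou5f1* reversed to −0.0051 with median centring (adjusted p = 0.958). The causes of these changes were not tested. With a product term (107), a pseudocount of 0.5 (102), quantile normalization (107) and median centring (128) the count stayed within 1.5 times.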
